A study of Mus musculus with 8 samples.

Results

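Dendritic epidermal T cells are the resident gamma-delta T cells of mouse epidermis. The genes described here are 10 that such cells use: the CD3 chain genes Cd3d, Cd3e and Cd3g, the receptor delta chain genes Trdc and Trdv4, and Thy1, Ptprc, Lck, Klrk1 and Fcer1g. They are defined by symbol, and each symbol matched 1 row of the 55416 genes in the deposited table. Of the 10 genes, 9 passed the filter on low counts and were among 13147 genes tested, and Trdv4 did not pass it. The RNA of dorsal epidermis from pups at postnatal day 4 (P4) was sequenced. The 4 libraries of RoraEKO pups came from a Rora flox/flox line crossed with K14-Cre, whose keratin 14 promoter is active in keratinocytes, and they are labelled as an epidermal knockout. The 4 control libraries are labelled WT. Epidermis was lifted off the dermis after brief heating, so that each library holds RNA of keratinocytes together with every other cell of the peel, and a lower level from fewer T cells cannot be told apart from less RNA per cell.

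These cells leave the fetal thymus, settle between keratinocytes and stay there, with dendrites that touch the neighbouring cells. Nearly all of them carry 1 receptor made of a gamma chain with the Trgv5 segment and a delta chain with the Trdv4 segment, which CD3 chains carry to the surface and link to signalling. They are known for responding to stressed or wounded keratinocytes, partly through NKG2D, the product of Klrk1.

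The segments that make this receptor are shown first because they are what sets these cells apart from other T cells. The last coding bases of each V segment are given 5′ to 3′ from GRCm39 together with the recombination signal behind them, in which the capitals mark the heptamer and the nonamer, separated by a spacer of 23 bases. The stretches lie at chr14:54312913-54313011 and chr13:19376836-19376934, both on the plus strand.
Trdv4: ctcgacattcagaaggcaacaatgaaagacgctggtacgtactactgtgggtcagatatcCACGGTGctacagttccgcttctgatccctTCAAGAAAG
Trgv5: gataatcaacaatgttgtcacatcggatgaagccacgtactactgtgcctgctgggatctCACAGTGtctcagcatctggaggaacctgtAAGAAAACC
The heptamer was CACGGTG in Trdv4 and CACAGTG in Trgv5. The nonamer was sought only at spacers close to 23 bases. Of its 9 bases, 5 matched the consensus in Trdv4 and 7 in Trgv5. In a joined receptor gene the coding end is followed by a J segment in the gamma chain and by a D and then a J segment in the delta chain, so that transcripts of the functional receptor hold no bases from the heptamer onwards. The gene counts do not separate joined from unjoined transcripts.

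Library totals ran from 17286903 to 26705533 counts. Levels are given as counts per 1000000 counts (CPM) after scaling of the libraries with TMM factors, and 3 counts, taken as the floor of detection for counting error only, amounted to 0.113 to 0.196 CPM. Values by library are listed in the order A1, B1, C1 and C6 for control and A3, B4, C2 and C3 for RoraEKO. The labels do not say whether the libraries came from separate litters, so that p-values measure the spread between these libraries. The gene-level counts of Rora did not separate the genotypes (log2 fold change -0.11, adjusted p = 0.877, by edgeR's quasi-likelihood test), and the genotypes were taken from the labels. Control replicates C1 and C6 held 8784 and 14050 counts of Xist, which is transcribed from the inactive X chromosome, while the other 6 libraries held at most 1, and the Y-linked Ddx3y was at 0 CPM in these 2 libraries only. No RoraEKO library was of this kind, and results whose call or direction changed without these 2 libraries are given with and without them.

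None of the 9 tested genes differed between the genotypes by the cutoffs used, a change of over 1.5-fold at a Benjamini-Hochberg adjusted p under 0.05. Over all genes tested, 725 genes or 5.51% passed them, of which 302 (2.3%) were higher and 423 (3.22%) lower in RoraEKO epidermis. No member had an unadjusted p under 0.05 with the edgeR quasi-likelihood test, where 18.2% of all genes tested did, and DESeq2 called none either. The libraries of the genotypes overlapped for each of the 10 members, while they did not overlap for 12.9% of all genes tested (5.4% higher and 7.54% lower in RoraEKO epidermis). The log2 fold changes of the tested members had a median of 0.35, and 7 of 9 were above 0, beside a median of -0.04 over all genes tested. Single libraries moved these values: the median was 0.05 with 5 of 9 above 0 without RoraEKO C3, 0.17 without control B1, 0.66 without control C1 and 0.62 without RoraEKO B4, and 0.76 without control C1 and C6 together. Without RoraEKO B4, Cd3d and Trdc had an unadjusted p under 0.05, and so had Lck without control C1 and C6 or with Xist as a covariate, but none passed after adjustment. The spread between libraries of 1 genotype was wide, and the libraries with the extreme values recurred. All 10 members were lowest in control B1 or RoraEKO B4, and 7 of them were highest in RoraEKO C3.

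**Figure D1:**
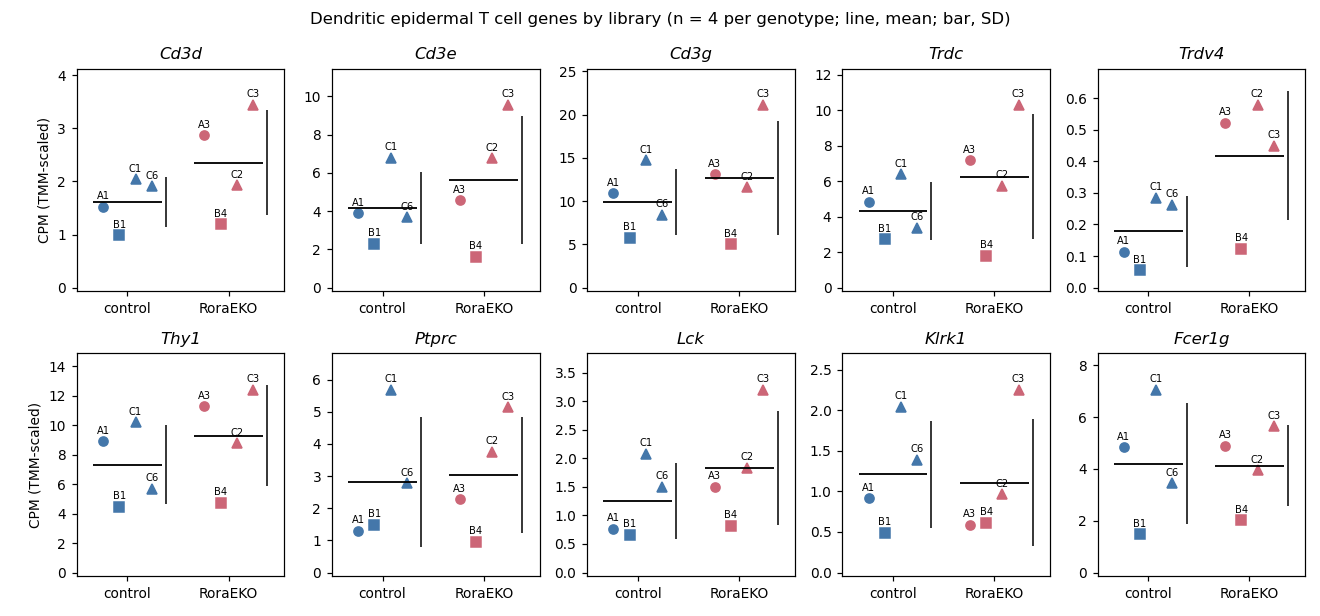
Level of each of the 10 dendritic epidermal T cell genes in every library, in TMM-scaled CPM on the vertical axis, for 4 control and 4 RoraEKO libraries; horizontal lines are means, vertical bars are SD, and marker shapes follow the first letter of the replicate name. The genotypes overlap in every panel, and the B libraries are at or near the bottom of each, as for Cd3g with 5.74 and 5.01 CPM.

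The CD3 chains surround the antigen receptor of every T cell and carry the motifs that start its signalling. Their 3 genes lie next to each other on chromosome 9, and their values rest on 334 (Cd3d), 825 (Cd3e) and 1910 (Cd3g) estimated counts over the 8 libraries. Cd3d (ENSMUSG00000032094), which spans 44893083 to 44899173 of chromosome 9, was at 1.52, 0.98, 2.04 and 1.91 CPM in the control libraries and at 2.87, 1.19, 1.93 and 3.44 CPM in the RoraEKO libraries. RoraEKO A3 and C3 were above every control library, and the other 2 RoraEKO libraries were inside the control range. The means were 1.61 ± 0.474 and 2.36 ± 0.998 CPM (SD, n = 4 each), or a log2 fold change of 0.53 (adjusted p = 0.53, by edgeR's quasi-likelihood test).

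Cd3e (ENSMUSG00000032093, 44910037 to 44920925) was at 3.88, 2.30, 6.77 and 3.68 CPM in the control libraries and at 4.57, 1.60, 6.75 and 9.54 CPM in the RoraEKO libraries. The RoraEKO libraries held both the lowest and the highest value, so that the control range lay inside theirs. The means were 4.16 ± 1.88 and 5.61 ± 3.36 CPM (SD, n = 4 each), with a log2 fold change of 0.43 (adjusted p = 0.741, by edgeR's quasi-likelihood test). Of the genes that overlap Cd3e in the annotation, Gm48719 on the opposite strand held 0 counts and Gm48720 held 2.

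Cd3g (ENSMUSG00000002033, 44880870 to 44891735) was at 10.9, 5.74, 14.7 and 8.41 CPM in the control libraries and 13.1, 5.01, 11.6 and 21.1 CPM in the RoraEKO libraries. As for Cd3e, the RoraEKO values enclosed the control values, and replicates B1 and B4 were the lowest. The means were 9.93 ± 3.8 and 12.7 ± 6.62 CPM (SD, n = 4 each), or a log2 fold change of 0.35 (adjusted p = 0.746, by edgeR's quasi-likelihood test).

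Trdc (ENSMUSG00000104876), the constant region of the delta chain and thus the member that marks gamma-delta T cells, lies at 54380308 to 54386325 on chromosome 14. It was at 4.83, 2.73, 6.39 and 3.38 CPM in the control libraries and at 7.18, 1.81, 5.73 and 10.3 CPM in the RoraEKO libraries. RoraEKO A3 and C3 were above the control range and RoraEKO B4 was below it. The means of 4.33 ± 1.63 and 6.26 ± 3.54 CPM (SD, n = 4 each) differed by a log2 fold change of 0.52 (adjusted p = 0.644, by edgeR's quasi-likelihood test). Trdv5 and Gm43434, which overlap Trdc on the opposite strand, held 0 counts.

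Trdv4 (ENSMUSG00000076867, 54312362 to 54312972 on chromosome 14), the V segment whose end is printed above, held 49 counts in all. The control libraries had 3, 1, 6 and 7 counts and the RoraEKO libraries 8, 3, 12 and 9. These were 0.179 ± 0.112 and 0.418 ± 0.204 CPM (SD, n = 4 each), and 3 of 4 RoraEKO libraries were above every control library while RoraEKO B4 was inside the control range. No difference was detected on these counts: when all genes with at least 1 count were tested, the log2 fold change was 1.21 with an adjusted p of 0.515 (by edgeR's quasi-likelihood test).

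Thy1 (ENSMUSG00000032011, 43954332 to 43959880 on chromosome 9) encodes a surface glycoprotein by which these cells were first told apart in epidermal sheets. It was at 8.91, 4.48, 10.2 and 5.67 CPM in the control libraries and at 11.3, 4.73, 8.77 and 12.4 CPM in the RoraEKO libraries. The B libraries were again the lowest of each genotype, and the highest library exceeded the lowest by 2.76 times, the narrowest range of any member. The means were 7.32 ± 2.69 and 9.29 ± 3.4 CPM (SD, n = 4 each). The log2 fold change was 0.34 (adjusted p = 0.692, by edgeR's quasi-likelihood test).

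Ptprc (ENSMUSG00000026395, 137990599 to 138103446 on chromosome 1) encodes CD45, the phosphatase found on all leukocytes, so that Langerhans cells and other leukocytes of the peel add to it. It was at 1.29, 1.48, 5.68 and 2.78 CPM in the control libraries and at 2.28, 0.95, 3.76 and 5.14 CPM in the RoraEKO libraries. Control C1 was the highest library, which was also so for Fcer1g but for no other member. The means were 2.81 ± 2.03 and 3.03 ± 1.82 CPM (SD, n = 4 each). The log2 fold change was 0.11 (adjusted p = 0.958, by edgeR's quasi-likelihood test). A130071D04Rik, which overlaps Ptprc on the same strand, held 45 counts in all, beside 494 for Ptprc.

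Lck (ENSMUSG00000000409, 129442137 to 129467434 on chromosome 4), the kinase that phosphorylates the CD3 chains, was at 0.76, 0.66, 2.08 and 1.5 CPM in the control libraries and at 1.5, 0.82, 1.83 and 3.20 CPM in the RoraEKO libraries. Only RoraEKO C3 was above the control range. The means were 1.25 ± 0.671 and 1.84 ± 0.998 CPM (SD, n = 4 each), and the log2 fold change of 0.55 was the largest among the tested members (adjusted p = 0.649, by edgeR's quasi-likelihood test). Without control C1 and C6 it was 1.41 (adjusted p = 0.276), and that of Ptprc was 1.17 (adjusted p = 0.393), with no member past the cutoffs.

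Klrk1 (ENSMUSG00000030149, 129587286 to 129600827 on chromosome 6), the gene of the activating receptor NKG2D, was at 0.91, 0.49, 2.04 and 1.39 CPM in the control libraries. In the RoraEKO libraries it was at 0.59, 0.62, 0.96 and 2.25 CPM, and 3 of these 4 were below the control mean of 1.21 ± 0.663 CPM (SD, n = 4). The RoraEKO mean was 1.10 ± 0.781 CPM (SD, n = 4), with a log2 fold change of -0.13 (adjusted p = 0.947, by edgeR's quasi-likelihood test). Its direction depended on the libraries, at 0.23 without control C1, 0.68 without control C1 and C6, 0.65 with Xist as a covariate and -0.73 without RoraEKO C3.

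Fcer1g (ENSMUSG00000058715, 171057141 to 171062219 on chromosome 1) encodes the Fc receptor gamma chain, a signalling subunit that dendritic epidermal T cells use and that mast cells and other myeloid cells also make. It was at 4.83, 1.48, 7.05 and 3.45 CPM in the control libraries and at 4.89, 2.01, 3.95 and 5.64 CPM in the RoraEKO libraries. The RoraEKO libraries all lay within the control range. The means were 4.2 ± 2.35 and 4.13 ± 1.57 CPM (SD, n = 4 each), the smallest difference among the tested members (log2 fold change -0.04, adjusted p = 0.987, by edgeR's quasi-likelihood test). It was 0.42 without control C1 and C6, 0.33 without control C1 alone and -0.31 without control B1.

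The width of the intervals shows which differences these libraries could not resolve. From limma on log2 CPM, the 95% interval of the fold change between genotypes ran from 0.792 to 2.42 for Cd3d, from 0.625 to 2.30 for Cd3g and from 0.601 to 2.73 for Trdc. The narrowest, that of Thy1, ran from 0.733 to 2.15, and that of Klrk1 from 0.409 to 1.96. Each interval holds 1 and also values past the 1.5-fold cutoff, so that the lack of calls does not show equal levels. Among libraries whose names share the letter A, B or C, the mean log2 CPM of the CD3 genes differed between RoraEKO and control by 0.45, -0.14 and 0.51. The labels do not say what the letters mark.

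**Figure D2:**
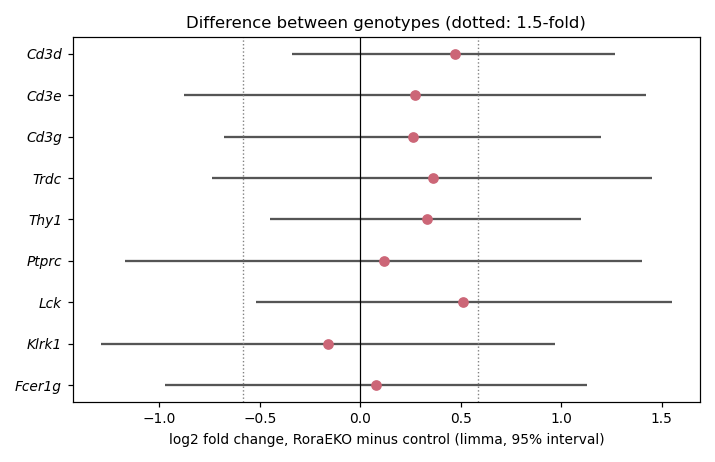
Difference between genotypes of the 9 tested members as log2 fold change, RoraEKO minus control, on the horizontal axis, with points for the limma estimate and bars for its 95% interval; the dotted lines mark a 1.5-fold change. Every bar crosses 0, and that of Thy1 is the narrowest, from -0.45 to 1.10.

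Levels can be set side by side between genes only per length of transcript. As counts per kilobase of merged exons, scaled to 1000000 over all genes, the order of the members over the 8 libraries was Fcer1g at 6.38 ± 2.88, Cd3g at 6.14 ± 2.96, Thy1 at 3.28 ± 1.14, Trdc at 2.41 ± 1.29, Cd3e at 2.11 ± 1.18, Cd3d at 1.36 ± 0.551, Trdv4 at 1.14 ± 0.669, Lck at 0.875 ± 0.506, Klrk1 at 0.292 ± 0.18 and Ptprc at 0.276 ± 0.176 (SD, n = 8). Neighbours in this order differed by less than either SD, with 3 exceptions: the step from Lck to Klrk1 was larger than both SDs, that from Cd3g to Thy1 larger than the SD of Thy1, and that from Cd3e to Cd3d larger than the SD of Cd3d. The order depends on genotype and on the length chosen. In control libraries Fcer1g was at 6.61 and Cd3g at 5.54, and in RoraEKO libraries Fcer1g was at 6.14 and Cd3g at 6.74. With the longest annotated transcript in place of the merged exons Cd3g came first at 7.2, before Fcer1g at 6.5 and Thy1 at 6.38, Cd3e at 3.08 passed Trdc at 2.2, Lck at 1.14 passed Trdv4 at 1.04, and Ptprc at 0.822 passed Klrk1 at 0.568.

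The members varied together from library to library. The summed level of the 3 CD3 genes was 16.3, 9.02, 23.5 and 14.0 CPM in the control libraries and 20.5, 7.81, 20.2 and 34.1 CPM in the RoraEKO libraries. To set each member against this common part, its log2 CPM was taken relative to the mean log2 CPM of Cd3d, Cd3e and Cd3g in the same library. The SD of Trdc over the 8 libraries was 0.80 on the log2 CPM scale and 0.21 relative to the CD3 genes. For Thy1 it was 0.57 and 0.25, for Lck 0.74 and 0.33, and for Fcer1g 0.74 and 0.35. Most of the spread of these genes between libraries was thus shared with the CD3 genes. Ptprc and Klrk1 followed them less, with an SD of 0.49 and 0.53 relative to the CD3 genes beside 0.91 and 0.76 on the log2 CPM scale. So did Trdv4, on 49 counts in all, at 0.48 beside 0.81.

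The same relative levels show what remained between the genotypes. RoraEKO minus control, the difference relative to the CD3 genes was 0.02 for Trdc, -0.01 for Thy1, 0.18 for Lck, -0.22 for Ptprc, -0.25 for Fcer1g and -0.49 for Klrk1, on the log2 scale. That of Trdv4 was 0.56, on the 49 counts given above. With Ptprc as the reference in place of the CD3 genes, these differences were 0.24 for Trdc, 0.21 for Thy1, 0.40 for Lck, -0.04 for Fcer1g, -0.28 for Klrk1 and 0.78 for Trdv4, since the change of reference shifts every member by the same 0.22 on the log2 scale up to rounding. The differences between members are the same with either reference. With the CD3 level as a covariate in the edgeR quasi-likelihood test, Trdc had a log2 fold change of -0.03 (adjusted p = 0.963) and Klrk1 of -0.49 (adjusted p = 0.61), and none of the 6 members tested this way passed the cutoffs. This reference is built from members themselves and describes relative levels only.

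Genes outside the set that followed the CD3 pattern most closely were found by the root mean square difference between centred log2 CPM over the 8 libraries, among 13138 genes. The smallest difference was that of Scart1, a scavenger receptor gene known from gamma-delta T cells, at 0.12, beside 0.71 for the median gene and 0.63 for a gene that is flat across libraries. Scart1 (ENSMUSG00000025461) was at 3.35, 1.8, 4.36 and 3.08 CPM in the control libraries and at 4.37, 1.93, 4.43 and 8.49 CPM in the RoraEKO libraries. Spry4, an inhibitor of receptor kinase signalling, followed at 0.17, on 101 counts in all, then the chemokine gene Xcl1 at 0.18, the integrin gene Itgae at 0.19 and the interleukin-2 and interleukin-15 receptor gene Il2rb at 0.21. Ctla2a (0.22), the protease gene Ctsw (0.26), the myosin gene Myo1f (0.26), the gamma chain constant region Trgc4 (0.27) and Lgals3bp (0.27) made up the 10 nearest. Among the members themselves the difference was 0.10 for Cd3g, which is part of the reference, 0.20 for Trdc and 0.23 for Thy1. It was 0.30 for Lck, 0.33 for Fcer1g, 0.45 for Trdv4, 0.46 for Ptprc and 0.49 for Klrk1. The 10 nearest genes were picked for their likeness to the CD3 pattern, and their closeness is a description.

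**Figure D3:**
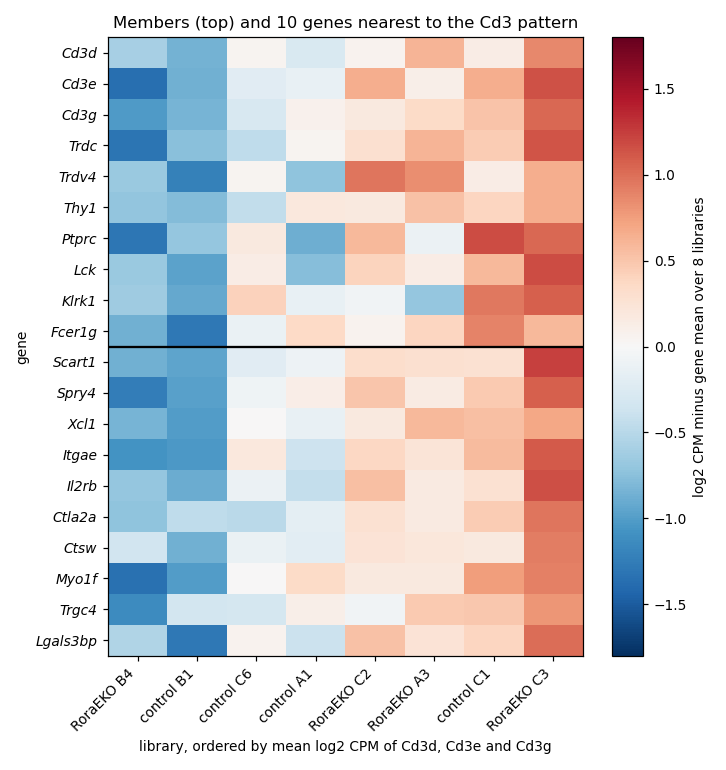
Log2 CPM of each gene minus its own mean over 8 libraries, as colour, for the 10 members above the line and the 10 genes nearest to the CD3 pattern below it; columns are libraries ordered by the mean level of the CD3 genes. RoraEKO B4 and control B1 are low and RoraEKO C3 is high in nearly every row, from -0.85 in B1 to 0.87 in C3 for Cd3d.

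Since the 3 CD3 genes moved together, the 250 bases before their annotated starts are shown, from RefSeq windows on GRCm38.p6. Such windows were found for 7 of the 10 members. The strands are 5′ to 3′ in the direction of each gene, and the capitals mark matches on either strand to CAGGAA, the core bound by ETS factors, or AGATAA, that of GATA factors. The windows lie at chr9:44981536-44981785 on the plus strand for Cd3d, and at chr9:45009612-45009861 and chr9:44980432-44980681 on the minus strand for Cd3e and Cd3g.
Cd3d: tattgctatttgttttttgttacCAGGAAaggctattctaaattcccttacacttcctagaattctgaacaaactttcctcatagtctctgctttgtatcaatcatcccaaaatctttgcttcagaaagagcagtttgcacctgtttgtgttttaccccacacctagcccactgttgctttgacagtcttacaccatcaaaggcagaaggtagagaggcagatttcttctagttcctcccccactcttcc
Cd3e: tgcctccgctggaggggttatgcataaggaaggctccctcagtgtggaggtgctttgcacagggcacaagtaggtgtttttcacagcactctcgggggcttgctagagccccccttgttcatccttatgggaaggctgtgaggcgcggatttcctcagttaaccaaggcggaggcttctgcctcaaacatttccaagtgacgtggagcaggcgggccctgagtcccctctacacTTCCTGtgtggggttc
Cd3g: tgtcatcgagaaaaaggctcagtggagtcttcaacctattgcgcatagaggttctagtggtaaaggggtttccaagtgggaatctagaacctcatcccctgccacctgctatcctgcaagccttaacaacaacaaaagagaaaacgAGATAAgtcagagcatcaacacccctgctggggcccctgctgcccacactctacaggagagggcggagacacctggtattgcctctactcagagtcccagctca
The 4 words searched are given with what binds them, none of which holds another: these and TGTGGT, the core bound by RUNX factors, and AGGTCA, the half-site bound by nuclear receptors such as RORα, each with its reverse complement. These members have 9 windows, since Ptprc and Lck have 2 each. CAGGAA was found in 8 of the 9 windows and in 25.7% of 32851 windows of the same length. The 2 windows of Ptprc overlap and hold the same match, so that it is counted in both. By gene, CAGGAA was found in 6 of the 7 members with a window. AGATAA and TGTGGT were each found in 2 of the 9, and in 9.99% and 14.0% of all windows. AGGTCA was in none of the 9 windows of these members and in 14.0% of all windows. A match is a description of the letters and not a binding site.

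Few of the other receptor segments could be tested. Of 16 gamma-delta receptor segments outside the members, 3 were tested, none passed the cutoffs, and their median log2 fold change was 0.49. Another 9 were at 0 in every library, and 12 of the 16 had no more than 3 counts in any. Of the 9, 5 were J or D segments of 16 to 61 bases, and at such lengths a count of 0 does not show that the segment was not used. Trgc1 (ENSMUSG00000076749), the constant region joined to Trgv5, was at 4.64, 1.53, 6.77 and 2.93 CPM in the control libraries and at 4.83, 2.34, 6.36 and 8.89 CPM in the RoraEKO libraries. Per length it stood at 9.19 ± 4.91 (SD, n = 8), above each of the 10 members. It was lowest in the B libraries and highest in RoraEKO C3, as most members were (log2 fold change 0.49, adjusted p = 0.686, by edgeR's quasi-likelihood test). Trgc2 and Trgc4 had log2 fold changes of 0.63 (adjusted p = 0.698) and 0.15 (adjusted p = 0.926). The Trgc genes are near copies of each other, and reads may have been divided among them. Trgv5, the gamma chain segment printed above, had 3, 2, 16 and 9 counts in the control libraries and 9, 1, 1 and 14 in the RoraEKO libraries, with no order by genotype.

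Of 20 genes listed for T cell receptor signalling, a list that does not hold Vav1, 16 were tested, 0 passed the cutoffs, and 10 had a log2 fold change above 0 with a median of 0.16. The 2 with an unadjusted p under 0.05 were the kinase gene Zap70 (log2 fold change 0.99, adjusted p = 0.212, by edgeR's quasi-likelihood test) and the surface protein gene Cd7 (0.87, adjusted p = 0.243), which were chosen after their values were seen. The most abundant of this list, Fyn, was at 122, 59.0, 62.4 and 39.6 CPM in the control libraries and at 93.2, 88.0, 75.4 and 59.4 CPM in the RoraEKO libraries (log2 fold change 0.16, adjusted p = 0.872). It was not lowest in the B libraries, and keratinocytes are known to express it. Rasgrp1 and Prkcq had log2 fold changes of -0.09 (adjusted p = 0.877) and -0.01 (adjusted p = 0.999).

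Of 20 genes for killer cell receptors and cytotoxic granules, 8 were tested and 0 passed the cutoffs, with 4 log2 fold changes above 0 and a median of 0.01. Ctsw, a lysosomal protease of cytotoxic lymphocytes, had means of 4.61 ± 1.29 and 6.68 ± 2.5 CPM (SD, n = 4 each) in control and RoraEKO libraries and did not pass the test (log2 fold change 0.53, adjusted p = 0.409, by edgeR's quasi-likelihood test). The granule protein gene Nkg7 had a log2 fold change of 0.67 (adjusted p = 0.524), and the adhesion receptor gene Cd96 of -0.84 (adjusted p = 0.431). Gzma and Gzmb, granzyme genes of activated killer cells, held 2 and 3 counts over the 8 libraries, while the granzyme gene Gzmc held 111 (log2 fold change -0.31, adjusted p = 0.864) and the perforin gene Prf1, which was not tested, held 36.

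Of 35 genes for epidermal residence, cytokines and regulators, 22 were tested, 0 were higher and 1, Ikzf3, was lower in RoraEKO epidermis. The median log2 fold change was 0.32, and 17 of the 22 were above 0. Ikzf3 (ENSMUSG00000018168, 98355728 to 98436857 on chromosome 11) encodes Aiolos, a transcription factor of lymphocytes. It was at 0.837, 0.984, 0.899 and 1.73 CPM in the control libraries and at 0.131, 0.0411, 0.241 and 0.0999 CPM in the RoraEKO libraries. The genotypes did not overlap, and the RoraEKO libraries held 2, 1, 5 and 2 counts. It fell by 3.09 on the log2 scale (adjusted p = 0.00717, by edgeR's quasi-likelihood test) and stayed past the cutoffs without any 1 library. With 3 of the 4 RoraEKO libraries under the floor of 3 counts, the size of the change depends on the method, and limma gave -2.47. Without control replicates C1 and C6 together the log2 fold change was -2.75 with an adjusted p of 0.0721. The level of Ikzf3 did not follow that of the CD3 genes, since RoraEKO C3, the highest library for Cd3g, held 2 counts of it.

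Cd44, which encodes the hyaluronan receptor and is also made by keratinocytes, was at 54.4, 73.8, 84.2 and 72.1 CPM in the control libraries and at 90.6, 91.1, 91.0 and 103 CPM in the RoraEKO libraries. The genotypes did not overlap, but the log2 fold change of 0.40 did not pass the test (adjusted p = 0.153, by edgeR's quasi-likelihood test). Bcl11b and Tcf7, transcription factor genes of T cells and skin, had log2 fold changes of 0.22 (adjusted p = 0.682) and 0.17 (adjusted p = 0.868). Cxcr6 and Jaml were named after their values were seen. The chemokine receptor gene Cxcr6 had a log2 fold change of -2.11 (adjusted p = 0.0533), with genotypes that did not overlap, and Jaml, whose product binds the coxsackie and adenovirus receptor on keratinocytes, of 1.29 (adjusted p = 0.0884).

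Keratinocyte genes whose products dendritic epidermal T cells respond to were taken next. Of 25 such ligand genes, 22 were in the table and 16 were tested, and 1 was higher and 2 were lower in RoraEKO epidermis. The median log2 fold change was -0.03. All 3 belong to the Skint family on chromosome 4, butyrophilin-like genes of skin and thymus, of which 11 were tested and 5 had a log2 fold change above 0. Skint genes are near copies of each other, and reads may have been divided among them.

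Skint1 (ENSMUSG00000089773, 111863466 to 111886735), which is needed in the thymus for the precursors of dendritic epidermal T cells, was at 7.46, 10.5, 9.99 and 10.2 CPM in the control libraries. In the RoraEKO libraries it was at 14.7, 14.7, 14.6 and 14.0 CPM, all above the control range and close to each other. It rose from 9.55 ± 1.41 to 14.5 ± 0.363 CPM (SD, n = 4 each). The log2 fold change was 0.61 (adjusted p = 0.03, by edgeR's quasi-likelihood test). The fold change was near the cutoff and the call was lost in 6 of the 8 fits without 1 library: without control A1 the log2 fold change was 0.50 (adjusted p = 0.028), and without control B1 (adjusted p = 0.0679), control C1 (0.067), RoraEKO B4 (0.0712), RoraEKO C2 (0.0553) or RoraEKO C3 (0.0771) the adjusted p missed its cutoff. The call was also lost when libraries were scaled by size alone (adjusted p = 0.0987) and with Xist as a covariate (0.0608).

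Skint5 (ENSMUSG00000078598, 113334894 to 113856700) was at 11.6, 21.5, 12.6 and 32.4 CPM in the control libraries and at 3.78, 4.56, 8.09 and 4.89 CPM in the RoraEKO libraries. The genotypes did not overlap, and the control libraries spread more widely. The mean fell from 19.5 ± 9.67 CPM to 5.33 ± 1.9 CPM (SD, n = 4 each). The log2 fold change was -1.87 (adjusted p = 0.0156, by edgeR's quasi-likelihood test). The call was lost without RoraEKO B4 (adjusted p = 0.053) or RoraEKO C3 (0.0584), and without control B1 the adjusted p was 0.05, just under the cutoff. It was 0.056 without both control C1 and C6 and 0.0761 with Xist as a covariate, where Skint5 was also not called. Skint7 (ENSMUSG00000049214, 111830120 to 111845814), was at 17, 31.5, 36.7 and 55.9 CPM in the control libraries and at 11.7, 9.70, 16.7 and 17.2 CPM in the RoraEKO libraries. The genotypes overlapped by a single library, since control A1 was just below RoraEKO C3.

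The call of Skint7 was the least stable of the 3. The mean fell from 35.3 ± 16.1 CPM to 13.8 ± 3.7 CPM (SD, n = 4 each). The log2 fold change was -1.35 (adjusted p = 0.0459, by edgeR's quasi-likelihood test), and the call was lost in 7 of the 8 fits without 1 library. The adjusted p was 0.0954 without control B1, 0.104 without control C1, 0.102 without control C6, 0.112 without RoraEKO A3, 0.119 without RoraEKO B4, 0.0943 without RoraEKO C2 and 0.0851 without RoraEKO C3. Without control C1 and C6 together the log2 fold change of Skint7 was -0.76 (adjusted p = 0.268), and that of Skint1 was 0.75 (adjusted p = 0.0862). Skint7 also missed the cutoff with Xist as a covariate (log2 fold change -0.76, adjusted p = 0.221), with RLE factors (adjusted p = 0.0523) and in limma (0.0578). Skint11, named after its values were seen, had a log2 fold change of 0.99 with genotypes that did not overlap, and did not pass the test (adjusted p = 0.0643, by edgeR's quasi-likelihood test).

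The starts of these 3 Skint genes are shown because Skint1 moved opposite to Skint5 and Skint7. The windows hold the 250 bases before each start, 5′ to 3′ from RefSeq on GRCm38.p6, at chr4:112006019-112006268 on the plus strand, chr4:113999504-113999753 on the minus strand and chr4:111972677-111972926 on the plus strand. The capitals mark the longest run of letters that the Skint1 and Skint5 windows share.
Skint1: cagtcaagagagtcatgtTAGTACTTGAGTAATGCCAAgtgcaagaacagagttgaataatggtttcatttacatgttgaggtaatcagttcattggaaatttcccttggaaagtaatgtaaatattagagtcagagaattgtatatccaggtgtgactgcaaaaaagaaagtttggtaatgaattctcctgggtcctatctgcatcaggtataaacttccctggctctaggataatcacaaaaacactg
Skint5: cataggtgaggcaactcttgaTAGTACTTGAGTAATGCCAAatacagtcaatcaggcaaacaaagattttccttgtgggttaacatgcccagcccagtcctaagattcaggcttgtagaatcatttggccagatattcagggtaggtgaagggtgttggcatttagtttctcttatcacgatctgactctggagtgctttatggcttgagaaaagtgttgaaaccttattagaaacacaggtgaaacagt
Skint7: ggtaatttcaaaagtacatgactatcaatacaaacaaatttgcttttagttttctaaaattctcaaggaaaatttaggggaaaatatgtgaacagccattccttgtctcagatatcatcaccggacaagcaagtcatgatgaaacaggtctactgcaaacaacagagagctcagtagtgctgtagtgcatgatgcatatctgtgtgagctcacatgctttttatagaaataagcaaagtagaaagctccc
This run of 20 bases was found in 2 of 32851 windows, those of Skint1 and Skint5, which moved in opposite directions. Skint7 shared no run longer than 8 bases with either. None of the 3 windows held AGGTCA. Of the 6 genes past the cutoffs, 5 had a window, and only that of Vav1 held AGGTCA. Over all windows 14.0% held it. The letters alone do not say what acts in any of these windows.

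The most abundant other ligands did not pass the test. H60c, whose product binds NKG2D in skin, was at 93.1, 155, 182 and 186 CPM in the control libraries and at 155, 124, 186 and 161 CPM in the RoraEKO libraries (log2 fold change 0.02, adjusted p = 0.986, by edgeR's quasi-likelihood test). Skint9, the most abundant Skint gene on the CPM scale, had a log2 fold change of -0.12 (adjusted p = 0.764), and Plxnb2, whose product binds semaphorin 4D on these T cells, of 0.33 (adjusted p = 0.504). Il7, a growth factor gene of these cells, was at 0 in every library, which allows a level of up to 0.113 to 0.196 CPM.

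**Figure D4:**
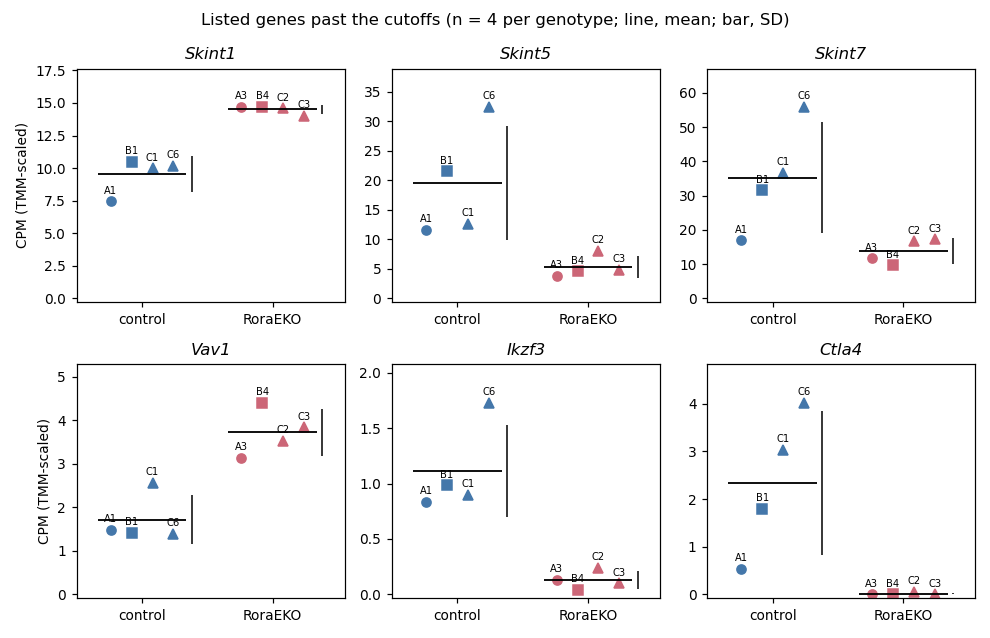
Level in every library, in TMM-scaled CPM, of the 5 listed genes that passed the cutoffs and of Ctla4, for 4 control and 4 RoraEKO libraries; horizontal lines are means, vertical bars are SD and marker shapes follow the first letter of the replicate name. Skint1 sits at 14.0 to 14.7 CPM in RoraEKO libraries, above all control libraries, while Ctla4 is at 0 in 3 of the 4.

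Among 16 pan-leukocyte genes 13 were tested, and 1, Vav1, was higher in RoraEKO epidermis, with a median log2 fold change of 0.08. Vav1 (ENSMUSG00000034116, 57586095 to 57636235 on chromosome 17), an exchange factor in signalling of blood cells, was at 1.48, 1.42, 2.56 and 1.39 CPM in the control libraries and at 3.13, 4.40, 3.52 and 3.84 CPM in the RoraEKO libraries. The genotypes did not overlap, and RoraEKO B4, the lowest RoraEKO library for Cd3g, was the highest for Vav1. It rose from 1.71 ± 0.564 to 3.72 ± 0.535 CPM (SD, n = 4 each). The log2 fold change was 1.12 (adjusted p = 0.0348, by edgeR's quasi-likelihood test). The call was lost without control A1 (adjusted p = 0.0567), control B1 (0.112), control C6 (0.0828), RoraEKO B4 (0.091), RoraEKO C2 (0.0604) or RoraEKO C3 (0.0972), and also without control C1 and C6 together (log2 fold change 1.41, adjusted p = 0.0505). It was also lost when libraries were scaled by size alone (adjusted p = 0.072) and with Xist as a covariate (0.0648). The other leukocyte genes, such as Laptm5 at a log2 fold change of -0.02 (adjusted p = 0.988), Lcp1 at -0.05 (adjusted p = 0.974) and Arhgdib at 0.08 (adjusted p = 0.858), did not pass the test.

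Markers of other cells of the peel were summed by list. Alpha-beta T cell markers summed to between 13.1 and 22.8 CPM in control and between 18.6 and 23.8 CPM in RoraEKO libraries, most of it Trbc2, while Trac held 16 and Foxp3 7 counts over all libraries. In this list 3 of 10 genes were tested and 1 was lower, Ctla4 (ENSMUSG00000026011, 60926159 to 60954991 on chromosome 1), an inhibitory receptor gene of T cells, which was named after its values were seen. Ctla4 held 14, 33, 64 and 107 counts in the control libraries and 0, 0, 1 and 0 in the RoraEKO libraries. It was at least 15.3-fold lower against the floor of 3 counts a library (adjusted p = 0.00322, by edgeR's quasi-likelihood test) and stayed past the cutoffs under each of the 17 alternatives in which it was tested. Control A1 and B1, which lack Xist, held 0.533 and 1.8 CPM of it.

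Langerhans cell markers summed to between 74.1 and 216 CPM in control libraries, with 216 CPM in control C1, and to between 74.5 and 99.5 CPM in RoraEKO libraries. None of 9 tested genes passed the cutoffs, and their median log2 fold change was -0.47. Control C1 was also the highest library for Ptprc and Fcer1g, genes that Langerhans cells share, and the part of these cells in their levels was not tested. Mast cell markers summed to between 11.1 and 34.8 CPM in control and between 3.53 and 15.2 CPM in RoraEKO libraries, with Mrgprb2 the largest part in every library but RoraEKO B4, where Kit was at 2.3 and Mrgprb2 at 1.15 CPM, while the defining markers Fcer1a and Ms4a2 were at 0. Macrophage markers summed to between 5.63 and 20.6 CPM and to between 9.79 and 13.3 CPM, and those of B cells to between 1.43 and 2.75 CPM and to between 2.14 and 3.13 CPM. Sums of neutrophil markers were between 0.237 and 0.826 CPM in control and between 0.493 and 3.42 CPM in RoraEKO libraries.

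Cells of the dermis and blood were traced in the same way. Dermal fibroblast markers summed to between 1.37 and 6.38 CPM in control and between 2.51 and 10.4 CPM in RoraEKO libraries, nerve markers to between 0.901 and 3.69 CPM and between 0.999 and 2.12 CPM, and endothelial markers to between 0.219 and 0.676 CPM and between 0.37 and 2.79 CPM. Erythroid genes summed to between 47.8 and 334 CPM and between 125 and 1040 CPM. All 5 were tested and none passed the cutoffs, at a median log2 fold change of 1.94, although 4 had an unadjusted p under 0.05. RoraEKO C2, at 1040 CPM the richest in them, was not the highest library for Cd3g. Keratinocyte markers summed to between 46100 and 71300 CPM in control and between 86300 and 108000 CPM in RoraEKO libraries, and 0 of 8 passed the cutoffs. Krt1 and Krt10 make up most of these sums, which did not overlap between the genotypes. Only 4 of the 8 log2 fold changes were above 0, with a median of -0.1, and Krt15 had one of -0.57 (adjusted p = 0.0884, by edgeR's quasi-likelihood test). The sums thus do not stand for the whole list, and their part in the members' levels per 1000000 counts was not tested. The sum over the 10 dendritic epidermal T cell genes was 37.9, 20.4, 57.2 and 32.4 CPM in the control libraries and 48.7, 18.9, 45.8 and 73.5 CPM in the RoraEKO libraries.

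**Figure D5:**
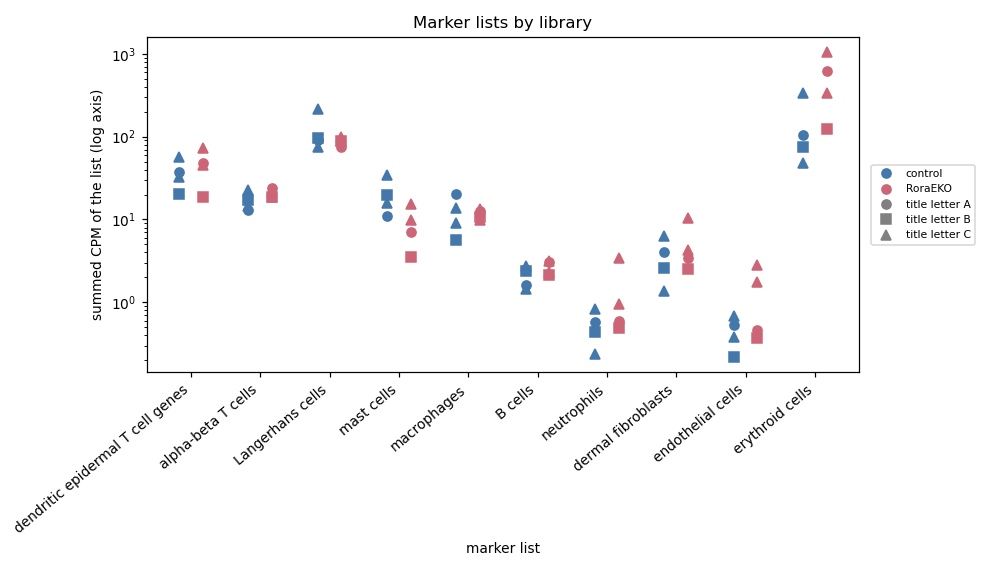
Summed CPM of each marker list, on a log axis, in every library, with control on the left and RoraEKO on the right of each list and marker shapes by the first letter of the replicate name. The dendritic epidermal T cell genes span 18.9 to 73.5 CPM in RoraEKO libraries and 20.4 to 57.2 CPM in control libraries, and the erythroid genes vary most.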

How the data were processed

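Total RNA of peeled P4 epidermis was made into poly(A)-selected TruSeq Stranded libraries. Per the submitters' processing notes, the authors converted reads with bcl2fastq 2.20.0.422, mapped them to GRCm39 with STAR 2.5.3a, counted them with RSEM and used edgeR 3.28.0. The authors deposited expected counts (estimated counts) of 55416 Ensembl genes, unscaled, of which 2.99% of values were not whole. Whether counting used strand, and the annotation release, are not given in the sources used here. The header names the 8 columns by sample title and leaves the identifier column unnamed. Groups came from the labels.

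Symbols were taken from GENCODE mouse release 39 (54749 identifiers matched). Counts were rounded, filtered with filterByExpr, scaled with TMM and compared in edgeR 4.0.16 (R 4.3.3) by its quasi-likelihood test in the legacy form. Benjamini-Hochberg adjustment was over 13147 genes, and a change of over 1.5-fold at an adjusted p under 0.05 was called. Intervals came from limma 3.58.1 on log2 CPM (prior count 2). The script was tested on simulated data.

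The members, marker lists and tests were chosen with earlier results of these data known. By rule the text names all members, the genes past the cutoffs and the 3 most abundant in control of each of 6 lists, the 10 genes nearest to the CD3 pattern, and Rora, Xist and Ddx3y as checks. Trgv5, Zap70, Cd7, Prf1, granzyme genes, Cxcr6, Jaml, Skint11, Il7 and genes of the cell type marker lists were named after their values were seen. Of the listed ligands, Raet1a, Raet1b and Raet1c were not matched. The alternatives were RLE factors, library size alone, DESeq2 1.42.0, the non-legacy test, other filters (at least 1 count in any library, at least 10 in each), a replicate block, Xist or the CD3 level as covariates, and fits without 1 library at a time. The limma fit and the fit without control C1 and C6 were added after seeing the data. Plots were drawn with matplotlib 3.10.9.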

Additional observations from a re-analysis of the deposited data

Results flagged for a closer look

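Among 16 genes in both genotypes, 5 groups of 4 libraries held a value whose gap to the nearest other library was large for the range of the group. Chance gives about 1 in 20 such groups, and 32 groups were examined. None of the 5 belonged to one of the 10 dendritic epidermal T cell genes. Skint1 was at 7.46 CPM in control A1, where the nearest control library was at 9.99 CPM. In the RoraEKO libraries Skint1 was at 14.0 CPM in C3, with the nearest library at 14.6 CPM, so that the gap there was small in CPM. Vav1 was at 2.56 CPM in control C1, with 1.48 CPM in the nearest library. Ikzf3 was at 1.73 CPM in control C6, beside 0.984 CPM in the nearest library. Ctla4 was at 0.0482 CPM in RoraEKO C2, which is 1 count, and at 0 in the other RoraEKO libraries.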

How the results depend on the processing

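No member passed the cutoffs under any alternative. The log2 fold changes ran from 0.29 to 0.94 for Cd3d, from -0.01 to 0.65 for Cd3g, from -0.03 to 0.84 for Trdc, from -0.38 to 1.17 for Ptprc and from -0.73 to 0.68 for Klrk1. Adjusted p ran from 0.216 (Lck) to 1 over these fits. Of 78 tested genes in the 6 lists outside the members, 2 were higher and 3 lower. The higher count was 0 with library size alone, with Xist as a covariate and without control C1 and C6 together, and 4 with DESeq2 and with the replicate block. The lower count was 1 with Xist as a covariate and 0 without control C1 and C6. Without 1 library at a time the higher count ran from 0 to 3 and the lower count from 1 to 5. The cause was not tested. Taking Ptprc as the reference shifted all members alike. The block was the first letter of the replicate name, since the groups share no replicate numbers. It changed no call of a member (Cd3d: adjusted p = 0.289, edgeR quasi-likelihood test) and none of the 6 named genes past the cutoffs. Deviations from the group means correlated across all tested genes at 0.48 for the A pair, at 0.13 to 0.44 for the 4 C pairs and at 0.05 for the B pair. Between A and C libraries it was -0.52 to -0.21, and in pairs with only 1 B library -0.3 to 0.28. By this measure libraries were alike within the letters A and C and unlike between them. Since it was near 0 for the B pair, the letters were not taken to pair libraries, and the main test leaves them out. Both B libraries were nevertheless below the mean for all 10 members. Over all genes, 725 passed the cutoffs, 478 higher and 553 lower with DESeq2, 420 and 579 with the block, 182 and 290 with Xist as a covariate, 147 and 167 without control C1 and C6, 174 and 283 without control B1, and 188 and 287 without RoraEKO C3. With library size alone 245 were higher and 482 lower, beside 302 and 423. The level per length was 6.38 for Thy1, 0.822 for Ptprc and 0.568 for Klrk1 with the longest transcript. When genes were centred within genotype, 6 of the 10 nearest to the CD3 pattern were shared. Trdv4, with 49 counts, held the fewest of the members.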
